A study of Mus musculus with 2 samples.

Results

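The 40 autophagy genes of the mouse were described by the histone mark H3K27ac, acetylation of lysine 27 of histone H3, in macrophages grown from bone marrow and left unstimulated. The set was named gene by gene, all 40 names were found among the 21938 protein-coding genes off the mitochondrial chromosome of GENCODE release M21, and the mark was read from peak lists on mm10 (GRCm38). Per the labels, the cells are primary macrophages of strain C57BL/6J, and the series holds 1 group of 2 biological replicates with no other treatment, time or genotype. Both libraries carry the same donor entry, so differences between animals may be missing from their spread, and the labels leave the sex and age uncollected and the stage unknown. Because there is no second group, no condition is compared, and each value is given for both replicates. Genes are not replicates, so shares and medians over them are descriptions of these 2 libraries.

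Autophagy delivers cytoplasm, organelles and microbes to the lysosome inside a double membrane, the autophagosome. A kinase complex and a lipid kinase complex start it, lipid transfer and vesicle proteins supply membrane, a ubiquitin-like conjugation system attaches Atg8 proteins (the LC3 and GABARAP families) to lipid, receptors tie cargo to the Atg8 proteins, and SNARE proteins and a tether fuse the autophagosome with the lysosome. Macrophages use the same conjugation machinery to handle engulfed bacteria and to limit inflammatory signalling. H3K27ac marks active promoters and enhancers, and a peak shows where it was concentrated in the population. In such bulk chromatin, fewer cells with the mark and less of it per cell cannot be told apart.

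The authors deposited a peak list for each replicate (29543 and 29345 peaks) and a replicated list of 32877 peaks made from both libraries together, which has no replicate spread. The fold of a peak over its background is the authors' own value, used here to describe and rank peaks within a list, and a percentile of 100 is the highest fold of that list. The number of reads behind the lists is not given in the sources used here, so a gene without a peak lay below the authors' threshold and need not lack the mark. A promoter peak is one that overlaps the 1 kb on either side of any annotated start of the gene, and a gene with such a peak in both replicates is called marked. Of 8 macrophage marker genes 8 were marked, with folds of 4.99 to 50.8 in replicate 1 and 4.36 to 50.3 in replicate 2. None of 4 T cell, 4 neutrophil, 4 fibroblast or 4 epithelial markers had a promoter peak in either replicate, and 1 of 4 B cell markers was marked (Ms4a1, folds 6.37 and 4.86).

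Promoter sequences are shown for the marked genes of highest and lowest fold in the replicated list (Nbr1, whose highest peak there lies elsewhere in the gene, and Atg5), for all other genes of the set whose window holds TCACGTG, and for 3 genes that lack a promoter peak in both replicates. They come from RefSeq on GRCm38.p6, run from 250 bases before to 50 after the RefSeq start on the gene's strand, and were found for 33 of the 40 genes. Atg12, Atg16l1, Becn1, Epg5, Map1lc3a, Pik3c3 and Rb1cc1 are named only. Capitals mark matches to CACGTG or TCACGTG on either strand. The windows are Nbr1 at chr11:101551857-101552156 (forward strand), Atg5 at chr10:44268089-44268388 (forward), Atg14 at chr14:47568385-47568684 (reverse), Atg3 at chr16:45158579-45158878 (forward), Atg7 at chr6:114670846-114671145 (forward), Atg4b at chr1:93754655-93754954 (forward), Calcoco1 at chr15:102722129-102722428 (reverse) and Optn at chr2:5064068-5064367 (reverse).
Nbr1: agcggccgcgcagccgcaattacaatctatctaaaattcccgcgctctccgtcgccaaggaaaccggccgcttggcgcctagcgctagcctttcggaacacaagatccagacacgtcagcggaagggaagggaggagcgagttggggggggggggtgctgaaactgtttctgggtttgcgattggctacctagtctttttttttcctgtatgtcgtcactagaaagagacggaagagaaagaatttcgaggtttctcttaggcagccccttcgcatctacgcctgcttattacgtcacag
Atg5: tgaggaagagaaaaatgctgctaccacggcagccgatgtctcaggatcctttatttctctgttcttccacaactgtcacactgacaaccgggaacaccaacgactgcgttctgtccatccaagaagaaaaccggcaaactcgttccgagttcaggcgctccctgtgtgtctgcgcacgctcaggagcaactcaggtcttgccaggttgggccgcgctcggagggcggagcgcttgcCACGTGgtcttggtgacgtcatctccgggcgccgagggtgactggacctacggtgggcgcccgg
Atg14: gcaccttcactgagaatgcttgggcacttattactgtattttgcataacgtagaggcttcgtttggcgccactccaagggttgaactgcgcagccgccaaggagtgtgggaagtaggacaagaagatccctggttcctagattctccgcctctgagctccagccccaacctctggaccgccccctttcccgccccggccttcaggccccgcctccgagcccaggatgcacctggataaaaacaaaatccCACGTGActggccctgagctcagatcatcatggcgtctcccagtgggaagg
Atg3: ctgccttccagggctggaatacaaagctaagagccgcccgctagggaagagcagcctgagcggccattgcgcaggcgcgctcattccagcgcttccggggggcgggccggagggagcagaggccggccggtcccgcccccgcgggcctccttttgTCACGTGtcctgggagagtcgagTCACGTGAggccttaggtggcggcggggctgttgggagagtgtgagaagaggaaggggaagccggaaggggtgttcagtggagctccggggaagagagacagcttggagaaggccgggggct
Atg7: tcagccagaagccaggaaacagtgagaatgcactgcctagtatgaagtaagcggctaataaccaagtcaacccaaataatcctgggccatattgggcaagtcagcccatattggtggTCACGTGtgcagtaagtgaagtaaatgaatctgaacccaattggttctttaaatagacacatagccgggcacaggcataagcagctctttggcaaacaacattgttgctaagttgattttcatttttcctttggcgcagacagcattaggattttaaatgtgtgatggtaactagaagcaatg
Atg4b: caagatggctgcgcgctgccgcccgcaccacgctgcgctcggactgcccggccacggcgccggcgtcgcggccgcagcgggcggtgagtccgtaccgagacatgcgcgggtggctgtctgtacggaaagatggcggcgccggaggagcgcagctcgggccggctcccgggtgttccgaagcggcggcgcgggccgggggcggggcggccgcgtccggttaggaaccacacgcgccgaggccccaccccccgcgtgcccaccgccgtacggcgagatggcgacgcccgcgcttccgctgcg
Calcoco1: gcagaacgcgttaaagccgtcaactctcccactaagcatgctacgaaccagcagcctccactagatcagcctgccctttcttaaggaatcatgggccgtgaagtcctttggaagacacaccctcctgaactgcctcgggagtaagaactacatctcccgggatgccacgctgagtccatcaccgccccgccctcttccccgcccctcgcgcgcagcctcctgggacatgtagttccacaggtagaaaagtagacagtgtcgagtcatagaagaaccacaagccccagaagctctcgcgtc
Optn: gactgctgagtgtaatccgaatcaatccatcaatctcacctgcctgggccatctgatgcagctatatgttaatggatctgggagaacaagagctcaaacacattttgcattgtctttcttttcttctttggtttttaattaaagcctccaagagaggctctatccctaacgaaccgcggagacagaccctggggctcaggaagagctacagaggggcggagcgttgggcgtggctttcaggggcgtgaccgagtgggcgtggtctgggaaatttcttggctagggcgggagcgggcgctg

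A peak of both replicates lay over the windows of Nbr1, Atg5 and Atg3, and a peak of replicate 2 alone over that of Atg14. The Atg7 window lies inside the gene, away from its annotated 5′ end, and no list had a peak over it, although Atg7 itself was marked at its 5′ end. The unmarked windows differed widely in base composition. The Atg4b window had a GC content of 78.0% with 55 CpG dinucleotides, that of Calcoco1 57.0% with 17, and that of Optn 52.7% with 13. For comparison, the Atg5 window, of the marked gene lowest in the replicated list, had a GC content of 59.3% with 24 CpG dinucleotides, and the Nbr1 window 54.0% with 23.

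Words bound by transcription factor families were read on both strands of the promoter windows, as letters and not as sites. The 33 genes had 39 windows, and a gene was counted if any of its windows held the word. CACGTG, the E-box read by bHLH proteins, stood at 4 of 33 genes (12.1%), namely Atg14, Atg3, Atg5 and Atg7. It stood at 9.18% of 16522 protein-coding genes with a window and at 12.3% of the 6866 marked ones. TCACGTG, which contains CACGTG and is the core of the element read by the lysosomal regulator Tfeb, stood at 3 genes (9.09%). Of all genes 5.15% held it, and of marked genes 7.81%. The Atg3 window shown held CACGTG at 2 places, and at Atg7 TCACGTG lay in the internal window, which had no peak. Shares in the set were thus near those of marked genes. The ETS family word CCGGAAGT stood at 3 genes (Atg101, Gabarapl2 and Vmp1), or 9.09%, against 5.94% of all genes and 11.2% of marked genes. TGACNNNGC, the core of the antioxidant element, stood at 5 genes (15.2%), against 15.0% and 17.6%. Neither GAGGAAGT, a word of the macrophage factor encoded by Spi1, nor TGACTCA, the AP-1 word, was found in any window of the 33 genes. Of all genes 3.62% and 5.40% held them, and of marked genes 4.41% and 4.49%. With shares this small and 33 genes, their absence is not read as a difference.

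Of the 40 autophagy genes, 29 were marked (72.5%). Of all protein-coding genes 39.4% were marked (8633 of 21938). Another 2 genes had a promoter peak in replicate 1 alone (Wipi1 and Wipi2), 3 in replicate 2 alone (Pik3c3, Pik3r4 and Atg4d), and 6 in neither (Ulk1, Atg4b, Map1lc3a, Optn, Calcoco1 and Stx17). In single lists 31 had one in replicate 1 and 32 in replicate 2, and the replicated list covered 34. The 5 genes with a peak in a single replicate had low folds there, 3.61 and 3.79 in replicate 1 and 3.52 to 4.69 in replicate 2. Over all genes with a peak in replicate 1 alone the median fold was 4.13, and in replicate 2 alone 4.19.

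Many autophagy genes start in CpG-rich sequence, defined as at least 55% GC and a CpG observed over expected ratio of at least 0.6 in the 500 bp on either side of the 5′ end. This held for 26 of 40 autophagy genes (65.0%), against 38.3% of all genes, with median ratios of 0.727 and 0.552. Among CpG-rich genes, 20 of 26 autophagy genes were marked (76.9%), against 60.4% of all such genes. Among the others, 9 of 14 autophagy genes were marked (64.3%), against 26.3% of all such genes. The class is read at the annotated 5′ end and can miss the start in use: Rb1cc1 and Atg14, marked only at another start, and Atg4b, whose RefSeq window shown above is rich in CpG, all fall outside the CpG-rich class. Of the 11 autophagy genes that were not marked, 6 had a CpG-rich 5′ end (Ulk1, Wipi1, Atg4d, Map1lc3a, Optn and Stx17).

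Promoters shared with a neighbour made up part of the set. Another protein-coding start lay within 1 kb of a start of 10 of the 29 marked autophagy genes (34.5%), against 2333 of all 8633. These were Atg13 (with Harbi1), Atg9a (Ankzf1), Atg2b (Gskip), Vmp1 (Ptrh2), Atg3 (Slc35a5), Atg4a (Psmd10), Atg12 (Ap3s1), Sqstm1 (Mgat4b), Snap29 (Pi4ka) and Nbr1. Peaks at these shared starts cannot be given to either gene. Without shared starts, 19 of 29 autophagy genes were marked (65.5%), against 33.6% of all such genes. The highest promoter peaks of the 10 sharing genes had a median percentile of 88.8 in the replicated list, against 75.4 for all sharing marked genes. Those of the other 19 had a median of 60.0, against 73.1 for all other marked genes. The median of 88.8 includes peaks of Vmp1 and Nbr1 that lie away from the shared start (percentiles 99.1 and 99.6). At their 5′ ends these 2 genes had percentiles of 57.1 and 95.9.

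Marked autophagy genes ranked somewhat lower than marked genes at large. The highest promoter peak of the 29 genes had a median percentile of 66.4 in the replicated list (quartiles 53.3 and 87.5), against 73.8 for all marked genes (quartiles 56.3 and 87.9). In the replicate lists the medians were 58.8 and 61.9, against 69.1 and 70.4 for all marked genes. The median fold was 8.26 in replicate 1 and 9.05 in replicate 2, against 10.5 and 11.1. Values ran from rank 132 of 32877 (Nbr1, fold 45.8) to rank 19917 (Atg5, fold 5.01). The peak ranked for Nbr1 was a promoter peak of that gene in neither replicate list. At its 5′ end Nbr1 had a fold of 29.1 (rank 1363) in the replicated list. Above the median of all marked genes stood 12 of the 29, and 7 lay in the lower 50% of the list, namely Ulk2, Atg14, Atg4a, Atg5, Atg10, Map1lc3b and Epg5. In the upper 10% of the replicated list stood 7 of the 29 (24.1%), Nbr1, Sqstm1, Vmp1, Gabarap, Atg12, Atg7 and Atg13, against 20.9% of all marked genes, and 5 of these 7 share a start with a neighbour, although the peaks ranked for Vmp1 and Nbr1 lie elsewhere in those genes.

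**Figure D1:**
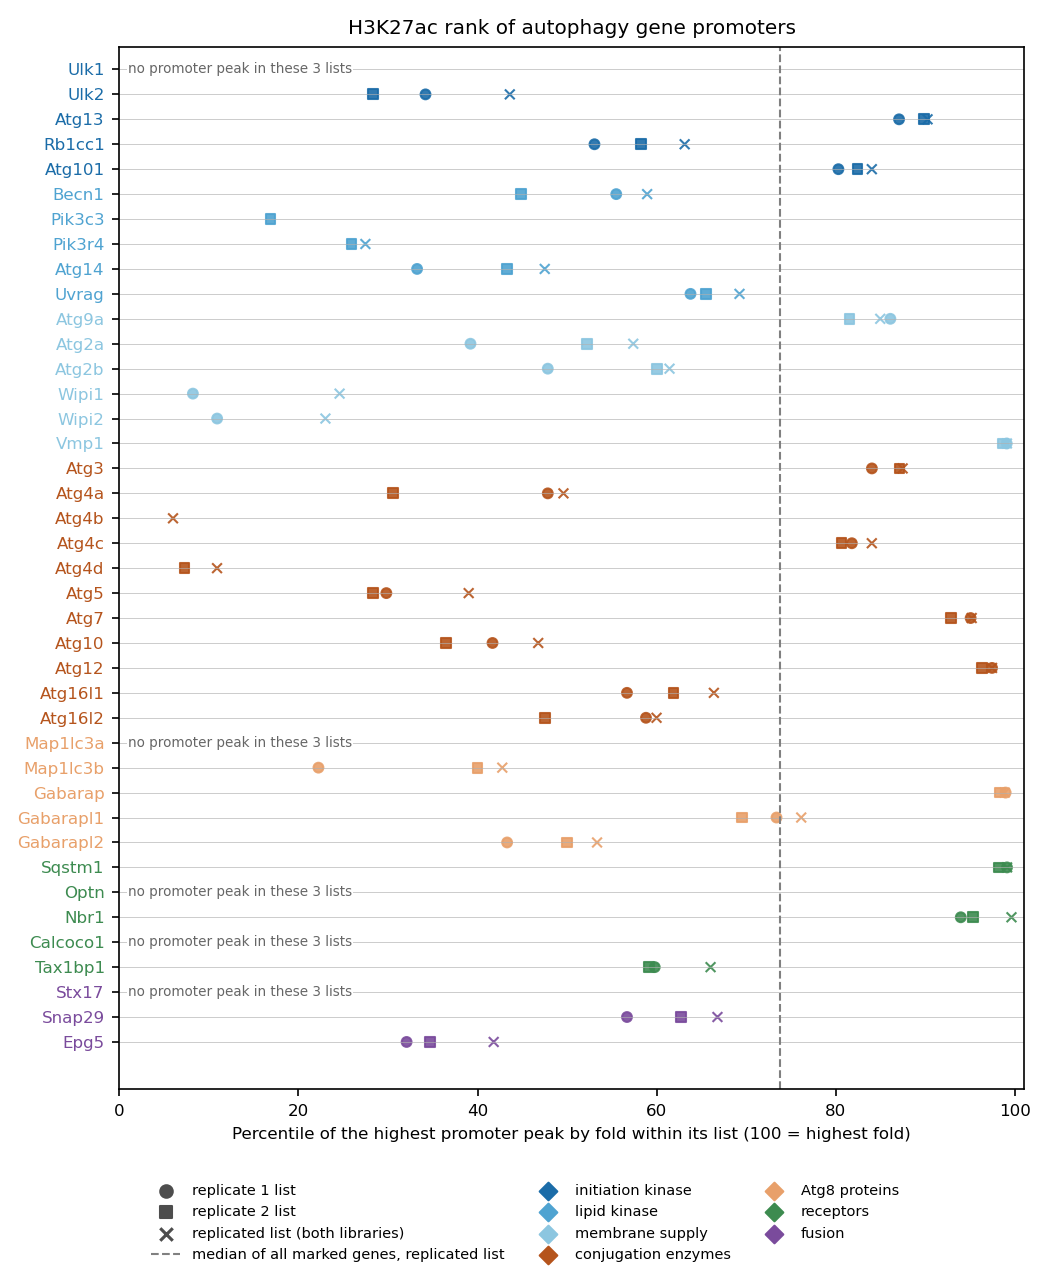
Percentile by fold (horizontal axis, 100 is the highest fold of the list) of the highest promoter peak of each of the 40 autophagy genes, ordered and coloured by group of the pathway, with circles for replicate 1, squares for replicate 2 and crosses for the replicated list. The dashed line is the median of all marked genes in the replicated list (73.8), and 12 of the 29 marked genes lie to its right.

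The 2 replicates ordered the genes alike. Across the 29 marked genes the fold of the highest promoter peak in replicate 1 and replicate 2 correlated with a Spearman rho of 0.943 and, on the log2 scale, a Pearson r of 0.978, given as a description since genes are not independent. The ratio of replicate 1 to replicate 2 ran from 0.763 (Map1lc3b) to 1.33 (Atg4a), with a median of 0.987. In 28 of the 29 genes the highest peaks of both replicates overlapped, as they did in 93.3% of all marked genes. The exception was Atg10, which makes the conjugating enzyme for Atg12: its highest peak lay before the 5′ end in replicate 1 (fold 6.02) and after it in replicate 2 (fold 5.53), while each replicate also had a peak on the other side.

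Promoter peaks either covered the 5′ end or flanked it. Among the marked genes 27 had a peak of both replicates within 1 kb of the annotated 5′ end, and Rb1cc1 and Atg14 only at another start of the gene. The 5′ end itself lay inside a peak of both replicates in 12 of the 29 (41.4%), against 37.9% of all marked genes. For 11 genes more than 1 promoter peak was found in each replicate. At Atg3, Atg10, Atg16l1, Uvrag, Tax1bp1 and Snap29 one peak lay on each side of the 5′ end with a gap between them, whereas at Atg5, Gabarapl2 and Atg4a a single peak lay before the 5′ end, and at Becn1 and Map1lc3b a single peak lay after it. These 5 genes had a single promoter peak in the replicated list too, of 5.01 to 7.70 fold and 564 to 791 bp.

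**Figure D2:**
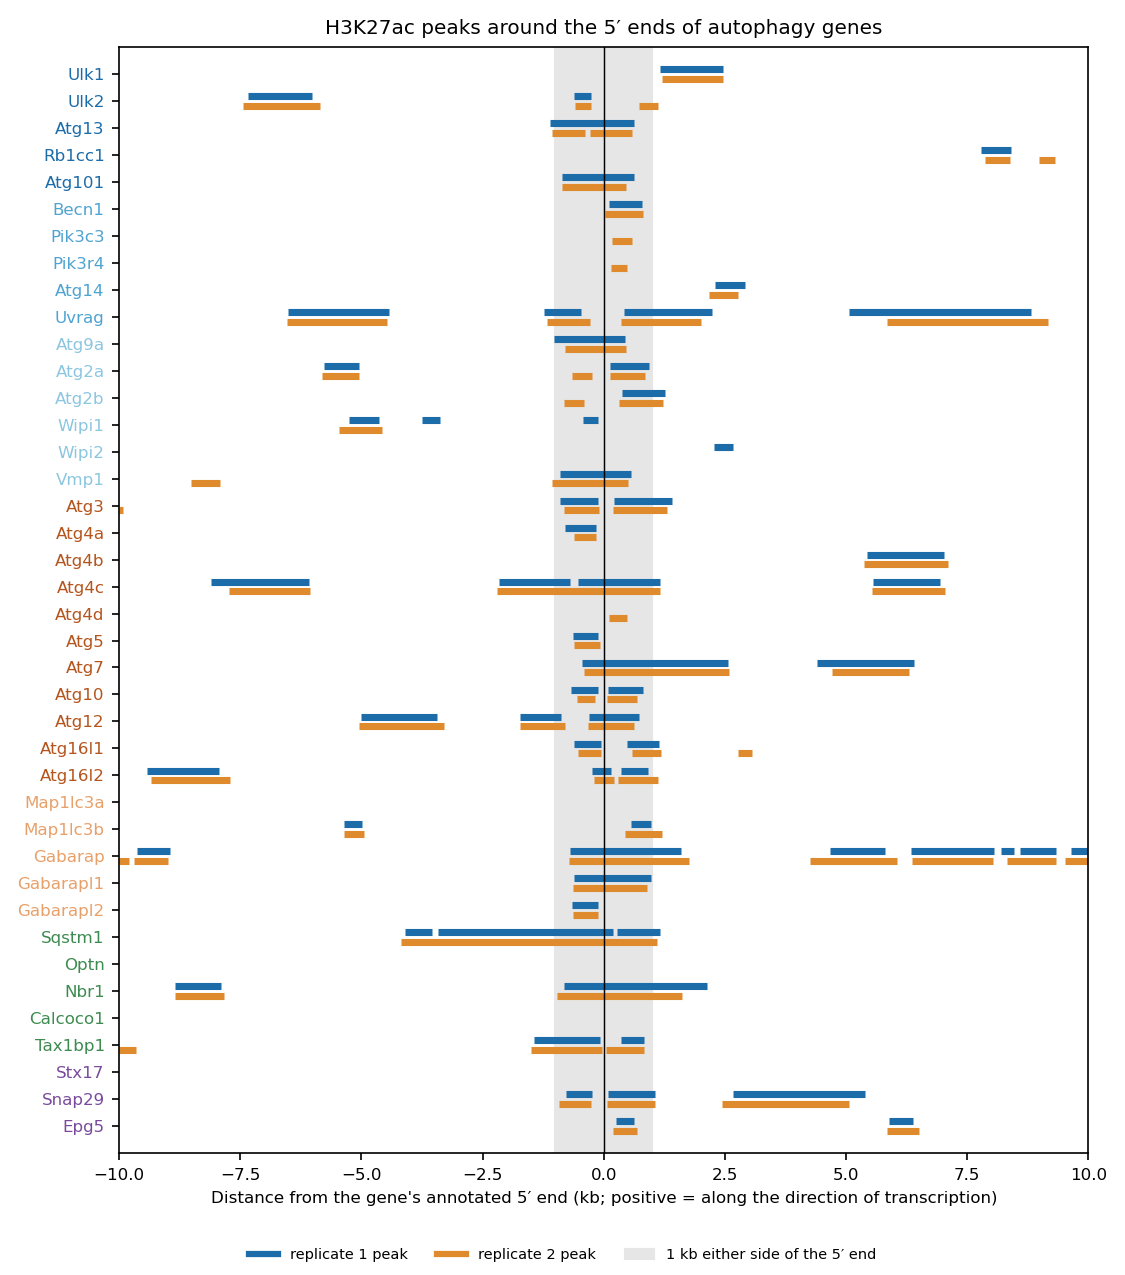
Peaks of replicate 1 (blue) and replicate 2 (orange) within 10 kb of the annotated 5′ end of each autophagy gene, drawn to scale with transcription to the right. The grey band is the 1 kb on either side of the 5′ end, which holds a peak of both replicates in 27 of the 40 genes.

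Among the genes of initiation, 11 of 16 were marked (68.8%), with a median percentile of 63.1 in the replicated list and a median width of 1046 bp. Of the kinase complex that starts autophagy, 4 of 5 were marked. Atg13, a regulatory subunit with its start beside that of Harbi1, had folds of 18.1 in replicate 1, 20.8 in replicate 2 and 21.1 in the replicated list (rank 3198, percentile 90.2). Atg101, which stabilises Atg13, had folds of 14.3, 15.6 and 16.1 in the same order (percentile 84.0), at chr15:101283419-101284891 in replicate 1, across its 5′ end. These stood above the other marked subunits.

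The scaffold gene Rb1cc1 had folds of 7.40 and 8.38, but its peak lay away from the gene's annotated 5′ end, which had no peak. The peak lay 7776 bp downstream in replicate 1 and 7869 bp in replicate 2. It was beside starts of other transcripts of the gene, a protein-coding transcript among them. Ulk2, a kinase of the complex, had folds of 5.33 and 4.86 and the narrowest promoter peak of the marked genes in the replicated list (371 bp). Ulk1, the other kinase, was not marked. Its nearest peaks began 1165 bp from the 5′ end in replicate 1 and 1194 bp in replicate 2, just past the 1 kb limit and inside the gene, with folds of 11.2 and 14.6. Ulk1 thus had a stronger peak close to its start than its marked paralog Ulk2, and is unmarked by the width of the window alone.

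Of the lipid kinase complex, 3 of 5 genes were marked, all below the median of all marked genes. Uvrag, a subunit of the complex that also acts in endosome traffic, had folds of 9.24 and 9.75 (percentile 69.2). Becn1, which encodes Beclin, the scaffold of the complex, had 7.74 and 6.37 (percentile 58.9). Atg14, which directs the complex to autophagosome formation, had 5.23 and 6.20. In replicate 1 its peak lay 2303 to 2907 bp downstream of its annotated 5′ end, at another start, used by protein-coding transcripts. The RefSeq window of Atg14 shown above lies beside that peak and not at the annotated 5′ end. The catalytic subunit gene Pik3c3 had a promoter peak in replicate 2 alone (fold 4.14), and its nearest replicate 1 peak lay 171390 bp away. The regulatory subunit gene Pik3r4 likewise had one in replicate 2 alone (4.69), with the nearest replicate 1 peak 139668 bp away and a fold of 4.08 in the replicated list.

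Membrane supply genes were marked in 4 of 6 cases. Vmp1, which encodes a lipid scramblase of the endoplasmic reticulum, had the highest folds of the group by the any-start rule, 37.9 in replicate 1 and 36.2 in replicate 2. That peak does not lie at the 5′ end. It spans chr11:86575285-86588479 in replicate 1, 13195 bp, at the far end of the gene, where 2 short processed transcripts start and where a noncoding gene also starts. At the 5′ end of Vmp1, shared with Ptrh2, the folds were 7.15 and 6.93 (7.37 and percentile 57.1 in the replicated list). Further peaks lay at internal starts, with folds of 14.6 and 14.0, and of 9.19 and 10.5.

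Atg9a, the scramblase of the vesicles that seed the membrane, had folds of 17.5 and 15.1 (percentile 85.0) at a start shared with Ankzf1. The lipid transfer genes Atg2a (5.84 and 7.37) and Atg2b (6.71 and 8.71) ranked at percentiles of 57.4 and 61.4. Atg9a thus stood above both of its partners in lipid transfer. Wipi1 and Wipi2, which bind the lipid made by the kinase complex, had a promoter peak in replicate 1 alone. Their folds there were 3.61 and 3.79, and they lay at percentiles 24.6 and 23.0 of the replicated list. For Wipi2 the peak lay 2268 bp downstream of the 5′ end at another start.

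Genes of conjugation were marked in 13 of 16 cases (81.2%), with a median percentile of 66.4 and a median width of 688 bp. Of the 11 enzyme and scaffold genes 9 were marked. Atg12, the ubiquitin-like protein that is joined to Atg5, had folds of 31.5 in replicate 1, 29.3 in replicate 2 and 33.2 in the replicated list (rank 844), at a start shared with Ap3s1. Atg7, the activating enzyme for both conjugation branches, had 26.4, 23.9 and 27.7 (rank 1591) across its 5′ end at chr6:114642650-114645668 in replicate 1. Atg7 also had 3 more promoter peaks in each replicate at internal starts, with folds of up to 12.1 and 12.4. These were the highest of the enzymes in both replicates.

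Atg3, which passes Atg8 proteins to lipid, had folds of 16.2 and 18.6 at a start shared with Slc35a5. In contrast, Atg5 had folds of 4.99 and 4.86, the lowest of the marked genes in the replicated list (5.01, percentile 39.0). The members of the conjugate complex thus spanned most of the range, Atg12 near the top, Atg16l1 in between (7.92 and 9.05) and Atg5 at the bottom. Atg16l2, a paralog of Atg16l1, had 8.26 and 6.70, and Atg10 had 6.02 and 5.53.

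The 4 Atg4 proteases, which process Atg8 proteins and release them from lipid, ranged from a high to no promoter peak. Atg4c had folds of 15.0 and 14.8 (percentile 84.0) and a replicated peak of 3378 bp, and Atg4a, on chromosome X beside Psmd10, 6.71 and 5.03. Atg4d had a promoter peak in replicate 2 alone (fold 3.52). Atg4b had none in either replicate and a fold of 2.88 in the replicated list (percentile 6.01). The nearest replicate peaks of Atg4b lay inside the gene, 5436 bp and 5360 bp from the 5′ end, with folds of 4.99 and 4.26. The RefSeq window of Atg4b shown above lies between that 5′ end and these peaks, which were thus nearer to the RefSeq start. With a window of 2.5 kb around any start, Atg4b was marked. Atg4c was thus the only protease gene of the 4 above the median of all marked genes in the replicated list, under the 1 kb window.

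Of the 5 genes for Atg8 proteins 4 were marked. Gabarap had folds of 37.2 in replicate 1, 35.0 in replicate 2 and 39.0 in the replicated list (rank 376), with no other coding start within 1 kb and a peak of 2832 bp across its 5′ end. Gabarapl1 followed with 11.7 and 10.9 (percentile 76.1). Gabarapl2 had 6.20 and 7.04, and Map1lc3b, which encodes the LC3 protein most used as an autophagosome marker, 4.47 and 5.87. Map1lc3a had no promoter peak in any list, and its nearest peaks lay 38773 bp away in replicate 1 and 38665 bp in replicate 2. The GABARAP genes therefore all stood above Map1lc3b in both replicates.

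Of the 5 receptor genes 3 were marked (60.0%). By the any-start rule, these included the 2 highest of the set in the replicated list. Sqstm1, the ubiquitin-binding receptor sequestosome, had folds of 38.0 in replicate 1, 34.5 in replicate 2 and 40.5 in the replicated list (rank 289), in a peak of 5348 bp that also covers the start of Mgat4b. Nbr1, a related receptor, had folds of 24.9 and 27.3 at its 5′ end, which it shares with a divergent neighbour, and 29.1 there in the replicated list (percentile 95.9). Its value of 45.8 in the replicated list belongs to another peak, 6661 bp wide, 26583 bp downstream at an internal transcript start and over the start of Tmem106a. Neither replicate list had this as a promoter peak of Nbr1. By the peak at the 5′ end, Nbr1 stood below Sqstm1, Gabarap and Atg12 in the replicated list. Tax1bp1, a receptor that also restrains inflammatory signalling, had 8.43 and 8.55 (percentile 66.0).

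The receptor genes Optn and Calcoco1 had no promoter peak in any list. For Optn, which encodes optineurin, the nearest peaks lay 51318 bp away in replicate 1 and 51267 bp in replicate 2. For Calcoco1, a receptor for the endoplasmic reticulum, they lay 50103 bp and 49507 bp away. The receptors thus fell into genes near the top of the list, 1 of middle rank, and 2 with no peak nearby.

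Of the 3 fusion genes 2 were marked (66.7%). Snap29, a SNARE of the fusion complex whose start lies beside that of Pi4ka, had folds of 7.92 and 9.22 (percentile 66.8). Epg5, the tether that brings autophagosomes to lysosomes, had 5.16 and 5.36 (percentile 41.8). Stx17, the SNARE on the autophagosome, had no promoter peak in any list, and its nearest peaks lay 80185 bp and 80135 bp away. None of the 3 fusion genes reached the median of all marked genes.

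Promoter peaks of autophagy genes were narrower at the median than those of marked genes at large. The highest promoter peak of marked autophagy genes had a median width of 937 bp in the replicated list, against 1247 bp for all marked genes, and 787 and 772 bp in the replicates, against 1012 and 1116 bp. At least 2 kb wide were 6 of the 29 (20.7%), against 26.5% of all marked genes. The widest were Vmp1 (13112 bp), Nbr1 (6661 bp) and Sqstm1 (5348 bp), of which the first 2 are the internal peaks named above. At their own 5′ ends the replicated peaks of Vmp1 and Nbr1 were 1668 and 2777 bp wide. Some high peaks were narrow, with 1063 bp at Atg12 and 806 bp at Atg3.

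**Figure D3:**
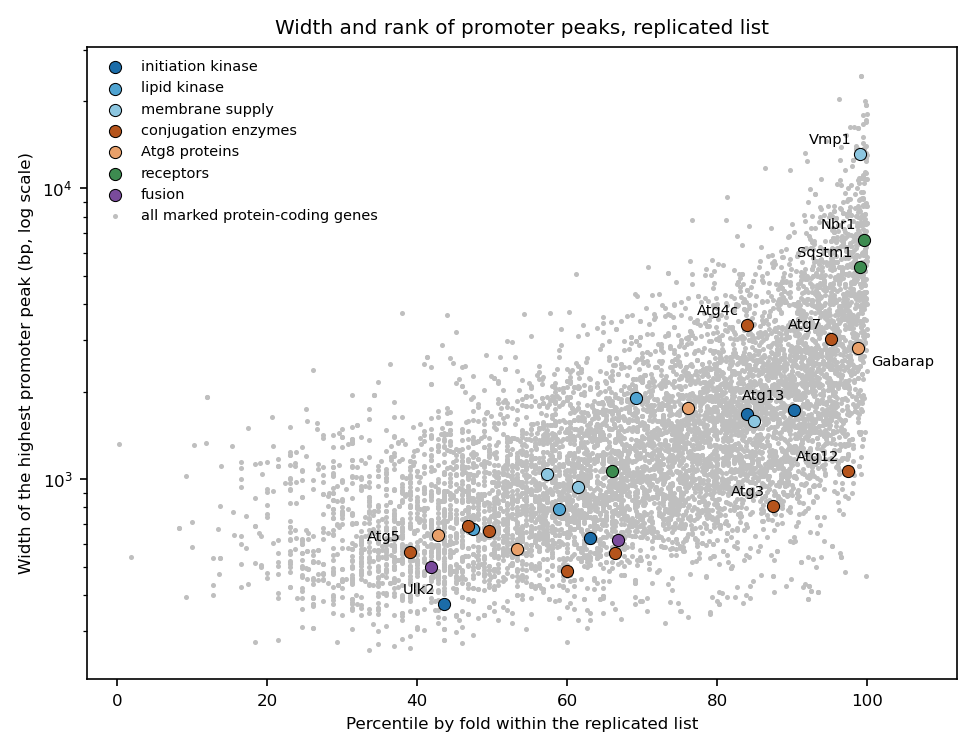
Width of the highest promoter peak (vertical axis, bp, log scale) against its percentile by fold in the replicated list, for the 29 marked autophagy genes, coloured by group, and for all 8633 marked protein-coding genes in grey. Sqstm1, Nbr1 and Vmp1 lie at the upper right, while Atg12 and Atg3 are narrow for their rank and Ulk2 is the narrowest of the set at 371 bp.

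Distal peaks were taken as replicate 1 peaks overlapped by a replicate 2 peak and more than 1 kb from every protein-coding start, with their midpoint within 25 kb of the gene's 5′ end. Of the 40 autophagy genes 18 had at least 1 (45.0%), against 26.0% of all protein-coding genes. Of the marked autophagy genes 15 of 29 did (51.7%), against 45.1% of all marked genes. The mean number was 0.775 for the 40 genes, against 0.481 for all genes, and 0.966 for the marked ones, against 0.889 for all marked genes. The set was thus nearer to its background among marked genes than among all genes. The total came to 31 distal peaks, and for 20 of them the autophagy gene had the nearest coding start.

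Initiation genes held 15 of the 31 distal peaks, conjugation genes 10, receptor genes 4 and fusion genes 2. Ulk2 had 4, all nearest to itself, the highest 6679 bp upstream with folds of 9.98 and 8.71. Atg13 also had 4, of which 2 lie nearer to Ambra1, itself a gene of the pathway. Ulk2 and Atg13 thus had the most of the set, and kinase complex genes together held 12. Among these is the Ulk1 peak described above, which begins 1165 bp from its 5′ end in replicate 1. Atg101 had 3, none of them nearest to it, the highest 13814 bp downstream with folds of 13.7 and 13.2. Atg4c had 3, all nearest to itself, with folds of 11.4 and 11.2 for the peak 7099 bp upstream. The 1 distal peak counted for Sqstm1 is a replicate 1 peak that the promoter peak of replicate 2 runs into, so it is not a separate element in both libraries.

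Apart from the Sqstm1 peak, the highest distal folds belonged to peaks nearest to other genes. A peak 4033 bp downstream of the Snap29 5′ end, inside Snap29 but nearest to the start of Pi4ka, had folds of 18.8 and 22.1. One 8678 bp upstream of Atg16l2, nearest to Stard10, had 15.7 and 20.6. Among peaks nearest to the autophagy gene itself, the highest was 6940 bp downstream of the Uvrag 5′ end, inside the gene, at chr7:99132319-99136083 with folds of 15.0 and 15.3. It exceeded the promoter peak of Uvrag in both replicates.

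**Figure D4:**
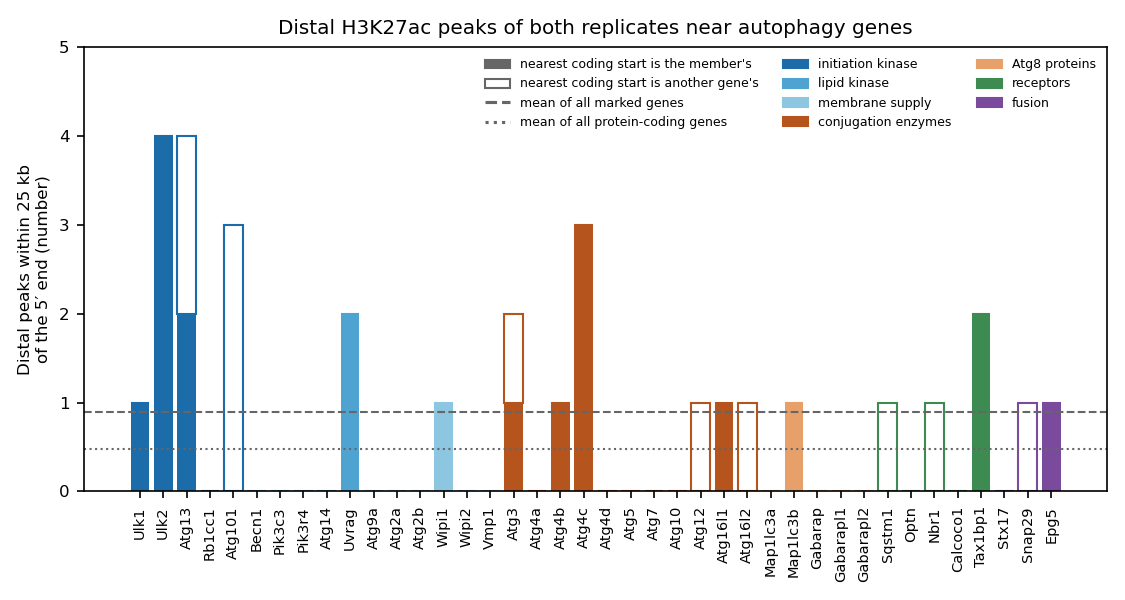
Number of distal peaks of both replicates within 25 kb of the 5′ end (vertical axis) for each of the 40 autophagy genes, filled where the nearest coding start is that of the gene and open where it is that of another gene. Ulk2 and Atg13 have 4 each, and the lines give the mean of all marked genes (0.889, dashed) and of all protein-coding genes (0.481, dotted).

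Sequences are shown for 2 distal peaks that lie nearest to their autophagy gene and have the highest replicate 1 folds among such peaks, as 300 bases of the forward strand of GRCm38.p6 around the replicate 1 summit. They are Uvrag at chr7:99133633-99133932 and Atg4c at chr4:99186504-99186803, and capitals mark a match to GAGGAAGT on either strand.
Uvrag: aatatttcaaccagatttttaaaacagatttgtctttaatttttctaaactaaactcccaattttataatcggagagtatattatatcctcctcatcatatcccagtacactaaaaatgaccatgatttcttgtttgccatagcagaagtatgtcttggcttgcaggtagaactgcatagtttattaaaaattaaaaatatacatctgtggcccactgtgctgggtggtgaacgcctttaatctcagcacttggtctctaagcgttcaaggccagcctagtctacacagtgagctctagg
Atg4c: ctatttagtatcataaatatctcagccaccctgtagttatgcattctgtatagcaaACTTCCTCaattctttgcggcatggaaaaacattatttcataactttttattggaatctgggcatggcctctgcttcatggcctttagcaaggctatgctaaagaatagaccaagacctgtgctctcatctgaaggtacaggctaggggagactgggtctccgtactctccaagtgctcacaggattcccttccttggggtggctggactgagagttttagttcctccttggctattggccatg
The Atg4c element holds GAGGAAGT on the reverse strand, and the Uvrag element holds none of the 6 words searched. In the 31 distal windows of the set GAGGAAGT stood in 3 (9.68%), against 2.91% of 15069 distal peaks of the genome, and TGACTCA in none, against 6.56%. CACGTG stood in 1 (3.23%), against 3.89%, TCACGTG in 1 (3.23%), against 1.61%, TGACNNNGC in 5 (16.1%), against 11.9%, and CCGGAAGT in none, against 0.425%. The counts are small, and a match is a run of letters and not a bound site.

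Further genes of the pathway, outside the 40, were marked in 32 of 39 cases (82.1%), against 39.4% of all genes. The median percentile in the replicated list was 66.4 for the 29 marked genes of the 40 and 73.8 for all marked genes. For the 32 marked further genes it was 79.8. The 3 highest were Vps18, a subunit of lysosomal tethering complexes (folds 40.1 and 39.4), Ncoa4, the receptor for ferritin (37.5 and 40.4), and Sh3glb1, a partner of Beclin (34.2 and 36.7). These are folds at any start, and the peak nearest the 5′ end had folds of 17.7 and 22.6 at Ncoa4. At Sh3glb1 the nearest peak differed between the replicates. In replicate 1 it lay 267 bp from the 5′ end with a fold of 3.96. In replicate 2 it lay 581 bp away and had the highest promoter fold of the gene, 36.7. Ambra1, a scaffold of initiation (4.86), and Mtor, the nutrient-sensing kinase (3.52), had a promoter peak in replicate 2 alone. No promoter peak was found in either replicate at the receptor genes Sec62 and Ccpg1, at Ei24, or at Prkaa1 and Prkaa2, which encode the catalytic subunits of the energy-sensing kinase AMPK. At Prkaa1 the nearest peaks lay 1599 and 1369 bp from the 5′ end (folds 3.92 and 3.03), and the replicated list had a promoter peak (3.525). At Prkaa2 the nearest peaks lay 181888 and 1186927 bp away. The transcription factor genes Tfeb, Tfe3 and Mitf, of 1 family and named here after their values were seen, were marked, with folds of 22.9 and 27.6 at Tfeb, 18.8 and 19.6 at Tfe3 and 14.5 and 12.2 at Mitf. The Tfeb peak nearest the 5′ end had lower folds, 8.78 and 6.03.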

How the data were processed

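H3K27ac ChIP-seq libraries of 2 biological replicates of unstimulated macrophages were analysed from peak lists. The authors deposited a list for each replicate, called on that library, and lists made from both libraries together, per the labels and the notes deposited beside them. A deposited fold is the linear ratio of peak over background, and a deposited q-value stands on a −log10 scale. Aligner, caller and read depth are not given in the sources used here, and no recorded step scaled folds across lists.

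Peaks were joined to GENCODE release M21 on GRCm38 with Python 3.11.15, pandas 2.3.3, numpy 2.4.6 and pysam 0.24.0, and the joins were tested on simulated peaks. Percentiles are by fold within a list. Positions are 1-based. The genes and lists were chosen with earlier results of these data known. Named in detail were the 2 marked genes of highest fold per group, all unmarked genes, and the genes with most distal peaks or widest promoter peaks. Alternatives changed the window, starts, list, threshold and distance.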

Additional observations from a re-analysis of the deposited data

How the results depend on the processing

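The count of 29 marked autophagy genes stayed within 1.5 times under 10 of 11 alternatives. The count could leave this range only by falling, because the whole set is less than 1.5 times as large. It was 29 with a 500 bp window, with starts of coding transcripts alone and with a −log10 q of at least 5, 31 with a 2.5 kb window (adding Ulk1 and Atg4b), 27 at the 5′ end alone, 34 in the replicated list, 35 in the pooled list, 25 with the 20000 highest peaks (losing Atg4a, Atg5, Map1lc3b and Ulk2), and 31 to 32 without 1 of the replicates. It was 19 when genes with another coding start within 1 kb were left out, but only 29 genes then remained. Of these 65.5% were marked, against 33.6% of all such genes. The share of all genes was 38.2% at 500 bp, 41.0% at 2.5 kb, 36.1% at the 5′ end and 33.5% with the 20000 highest peaks. For the further pathway genes the count was 32 to 34.

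The median percentile of 66.4 was 58.6 when ranked among promoter peaks alone, 60.0 without shared starts, and 58.8 to 61.9 without 1 of the replicates. The median width of 937 bp was 1046 bp with the 2.5 kb window, 688 bp without shared starts, 772 to 787 bp without 1 of the replicates, and 1046 bp at the 5′ end alone, an alternative chosen after seeing the data. The mean of 0.775 distal peaks was 0.375 within 10 kb, 2.375 within 100 kb, 0.75 with an overlap of 50% of both peaks, 1.125 in the replicated list, 0.675 over 2.5 kb from every coding start, 0.5 with nearest genes alone, 0.7 with a −log10 q of at least 5, and 0.825 to 0.85 without 1 of the replicates. No paired analysis was possible because there is a single group. The unknown depth limits statements on genes without a peak.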
